A study of Mus musculus with 12 samples.

Results

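Proliferating hepatocytes of the authors' cluster 8 were the 340 cells that carried both the name ProliHeps and the cluster number 8, of 6573 annotated mouse hepatocytes in 9 libraries. All cells numbered 8 carried that name, and the only other ProliHeps were the 108 cells of cluster 18. The 10X Chromium pool without CLO gave 177 of the 340 cells and the 10X pool with CLO gave 146. The Smart-seq2 libraries gave the other 17. The deposited table used here holds the library, batch, cluster, name and map position of each cell, and no value per gene. The name was therefore not checked against Mki67, Top2a or Cdk1, and "proliferating" is the authors' word throughout.

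Each 10X pool joined hepatocytes of 2 Rosa26-mTmG mice on normal diet (day 0) with those of 2 wild-type mice fed DDC for 7 days, on a C57BL/6J;129S6/SvEvTac background. DDC is a porphyria-inducing compound that injures hepatocytes and bile ducts. The title of 1 of the pools adds a CLO treatment, an abbreviation that the labels do not spell out. All normal-diet mice of the pools carried the Rosa26-mTmG reporter and none of the DDC-fed mice did, so genotype and diet went together. The table does not tie a 10X cell to a diet or an animal, so each pool counted as 1 sample and no test between pools was possible. For Smart-seq2 the donors were Sox9-EGFP mice, a reporter line in which GFP follows Sox9, on an FVB/N;129S6/SvEvTac background, with 129S7/SvEvTac in place of 129S6/SvEvTac in the tag of Z104. They comprised 1 library of day 0 (Z101), 3 of day 7 (L4, Z103 and Z104, replicates 1, 2 and 3), 2 of mixed day 3 and day 7 (L3 and L5) and 1 of mixed day 0 and day 7 (Z102). Cells of injured livers were sorted there by size and GFP. The titles give 1 mouse for the normal diet and 2 for all of day 3 and day 7 together, and ages are not stated there.

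Hepatocytes of an adult liver rarely divide. After injury or loss of tissue they can re-enter the cell cycle, and such cells are usually recognised by genes like Mki67, a protein of the chromosome surface in dividing cells, Top2a, which untangles DNA before and during mitosis, and Cdk1, the kinase that drives entry into mitosis. Cells in different parts of the cycle often fall into separate clusters in single-cell data. The authors placed a further population beside them, the LPLC (liver progenitor-like cell), a cell that arises from hepatocytes and gains Sox9, a transcription factor typical of bile duct cells. PostLPLCs1 is the name they gave to one of the populations placed after that stage.

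Cluster 8 took a larger share of the 10X pool with CLO than of the pool without. It held 177 of 4800 cells without CLO, or 3.69% (95% exact Clopper-Pearson interval 3.17 to 4.26), and 146 of 1446 cells with CLO, or 10.1% (8.59 to 11.8). The ratio of the shares was 2.74 (Katz log interval 2.22 to 3.38). Among the 25 hepatocyte clusters, ordered from the largest ratio down, cluster 8 stood at place 6. Cluster 18 was at place 1, and the 4 PostLPLCs1 clusters stood at places 4, 5, 7 and 9. With NormalHeps left out of the denominator, the shares of cluster 8 were 4.91% (4.23 to 5.67) without CLO and 13.5% (11.5 to 15.7) with CLO. With InjuredHeps1 left out of the denominator the ratio was 2.22 (1.79 to 2.73). These intervals hold counting error alone, not variation between animals. The pools were separate batches, so batch and CLO cannot be told apart.

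**Figure D1:**
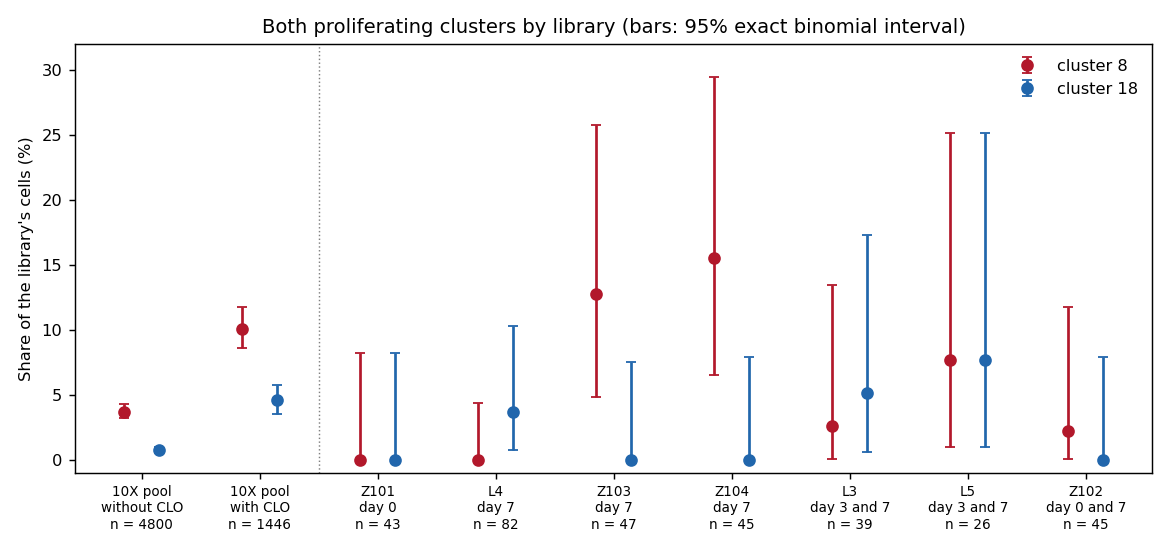
Share of each library's cells (percent, vertical axis) in cluster 8 (red) and cluster 18 (blue), with 95% exact binomial intervals and the number of cells under each library. Cluster 8 stood at 3.69% and 10.1% in the 10X pools, at 12.8% and 15.6% in Z103 and Z104, and at 0 in Z101 and L4.

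The balance between both proliferating clusters differed between the pools. Of the 212 ProliHeps in the pool without CLO, 83.5% (77.8 to 88.2) were cluster 8 and 35 cells were cluster 18. The pool with CLO also held 212 ProliHeps, of which 68.9% (62.2 to 75.0) were cluster 8 and 66 cells were cluster 18. Those counts correspond to 506 cluster 8 cells per 100 cluster 18 cells without CLO and 221 with CLO, a ratio of 0.437 (0.275 to 0.696). Cluster 8 was thus the larger proliferating cluster in both pools, and its lead was smaller with CLO. In the Smart-seq2 libraries together it made up 17 of 24 ProliHeps, or 70.8% (48.9 to 87.4). That sum joins unlike batches, with 100% (76.8 to 100) in batch 1 and 30% (6.67 to 65.2) in batch 2. Its interval leaves this split out, so it was not set against the pools.

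Relative to PostLPLCs1, cluster 8 was at nearly the same level in both pools. There were 32.1 cluster 8 cells per 100 PostLPLCs1 without CLO, from 552 PostLPLCs1, and 30.4 with CLO, from 480. The ratio of these levels was 0.949 (0.738 to 1.22), so a difference was not detectable within counting error, and the interval allows a level with CLO of between 0.738 and 1.22 times that without. The same held against each PostLPLCs1 cluster, with ratios of 1.03 (0.763 to 1.38) for cluster 4, 0.855 (0.629 to 1.16) for cluster 6, 1.03 (0.739 to 1.44) for cluster 10 and 0.728 (0.425 to 1.25) for cluster 20. Cluster 18 did not keep this level, with 6.34 cells per 100 PostLPLCs1 without CLO and 13.8 with CLO, a ratio of 2.17 (1.41 to 3.33).

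Against each of the other hepatocyte types taken whole, cluster 8 was higher with CLO. Its own count was not, with 146 cells with CLO against 177 without, so these ratios also follow how many comparison cells each pool held. Per 100 LPLCs there were 89.8 cluster 8 cells without CLO and 132 with CLO, a ratio of 1.46 (1.06 to 2.02). Per 100 PreLPLCs, the population named as preceding the LPLC, the ratio was 2.37 (1.59 to 3.53), and per 100 NormalHeps it was 2.68 (2.09 to 3.44). The ratio reached 4.08 (3.09 to 5.39) against InjuredHeps2, 11.5 (8.09 to 16.2) against PostLPLCs2 and 44.2 (26.4 to 74.0) against InjuredHeps1. The last of these rests on 18 InjuredHeps1 cells in the pool with CLO, against 965 in the pool without. Among the types taken whole, PostLPLCs1 was therefore the only one whose interval included 1, as did those of its 4 clusters. No other type was split into its clusters for this comparison, so the level was not shown to be particular to PostLPLCs1. By share of the pools, PostLPLCs2 cluster 21 had a ratio of 2.66 (1.62 to 4.35), near the 2.74 of cluster 8. NormalHeps clusters 11 and 12 had larger ratios, 4.41 and 5.81, and the other NormalHeps clusters had smaller ones.

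**Figure D2:**
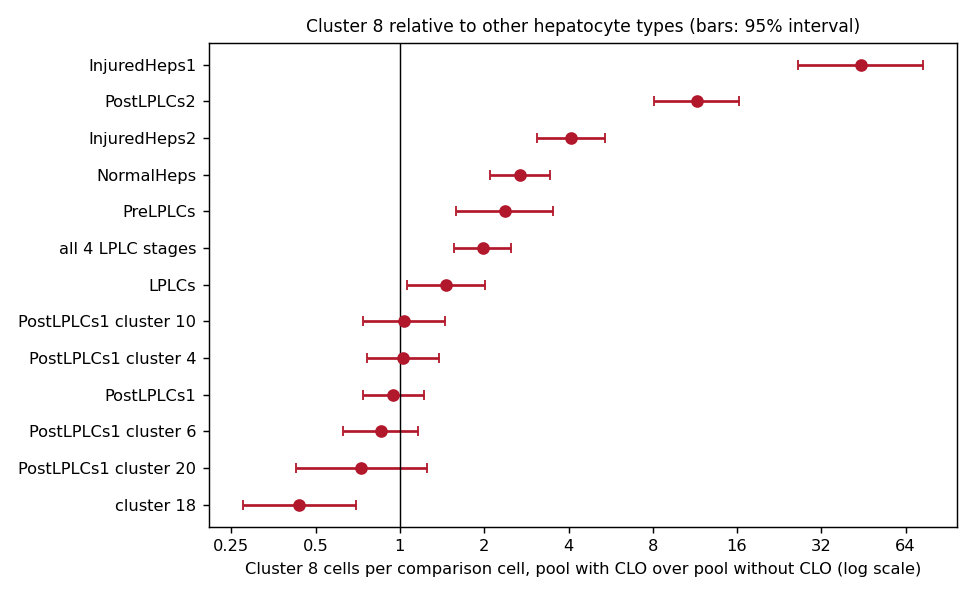
Number of cluster 8 cells per comparison cell in the 10X pool with CLO, divided by the same number without CLO (horizontal log axis), with 95% log intervals from the 4 counts. The intervals of PostLPLCs1 and its clusters include 1, cluster 18 lies below 1 at 0.437, and the other types lie between 1.46 and 44.2.

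The Smart-seq2 libraries gave few cluster 8 cells, and those were spread unevenly. Of the day 7 libraries, L4 held 0 of 82 cells, which allows a share of up to 3.66% by the limit that 3 cells would set and up to 4.40% by the exact interval. Z103 held 6 of 47 cells, or 12.8% (4.83 to 25.7), and Z104 held 7 of 45 cells, or 15.6% (6.49 to 29.5). The mean was 9.44% ± 8.29 (SD, n = 3). The day 0 library Z101 held 0 of 43 cells, which allows a share of up to 6.98% by the limit of 3 cells and up to 8.22% by the exact interval. The shares of Z103 and Z104 lay above both of these limits, but the lower ends of their intervals, 4.83% and 6.49%, lay below them. L4 held 0 cells, the same count as Z101. With 3 libraries from at most 2 mice on one side and 1 library on the other, no test was made. Day 7 cells were sorted by size and GFP, so the day and the sorting cannot be told apart. Of the libraries of mixed days, L3 held 1 of 39 cells (2.56%), L5 held 2 of 26 (7.69%) and Z102 held 1 of 45 (2.22%).

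The cluster number of Smart-seq2 ProliHeps went with the batch column of the table. In batch 1, which held Z101, Z102, Z103 and Z104, all 14 ProliHeps were cluster 8 and none was cluster 18, so the share was 100% (76.8 to 100). In batch 2, which held L3, L4 and L5, 3 of 10 ProliHeps were cluster 8, or 30% (6.67 to 65.2), and 7 were cluster 18. The 3 ProliHeps of L4 were all cluster 18, so that this day 7 library had proliferating cells without having cluster 8 cells. Within batch 1 the mean of the 2 day 7 libraries was 14.2% and day 0 was at 0. Batch 2 had no day 0 library, and L4 was its 1 library of day 7 alone. Per 100 PostLPLCs1, Z103 and Z104 held 31.6 and 33.3 cluster 8 cells, from 19 and 21 PostLPLCs1, beside 32.1 and 30.4 in the 10X pools. L4 held 33 PostLPLCs1 and no cluster 8 cell. The libraries of mixed days were also lower, at 3.33 in L3, 12.5 in L5 and 6.25 in Z102, from 30, 16 and 16 PostLPLCs1. The levels of Z103 and Z104 were thus nearest to those of the 10X pools, but they rest on 6 and 7 cluster 8 cells. The other Smart-seq2 levels rest on 0 to 2 cluster 8 cells. No interval was computed for these levels, so differences between the libraries were not assessed.

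The authors' map is a UMAP projection of the integrated data, in which close neighbours tend to have similar expression. On it cluster 8 stood at the edge. Map distance has no unit, and the map comes from the same expression values as the clusters, so these positions are a description without a test. The median position over both pools was -9.96 on the first axis, where the whole map ran from -10.8 to 8.21. Cluster 18 was the nearest cluster by median position, at a distance of 0.594, followed by PostLPLCs1 cluster 20 at 5.51, cluster 6 at 6.42 and cluster 10 at 6.44. The LPLC cluster 7 was at 7.28 and PostLPLCs1 cluster 4 at 7.51. All 4 PostLPLCs1 clusters were thus among the 6 nearest.

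Most members formed 1 piece. When cells within a map distance of 0.3 were joined and a piece needed a dense core of 5 cells, 320 of 340 members (94.1%) fell in a single piece, as did all 108 cells of cluster 18 within that distance of it. The piece took in 161 of 177 members of the pool without CLO (91.0%), 143 of 146 of the pool with CLO (97.9%) and 16 of 17 Smart-seq2 members. Only 34 of 6125 hepatocytes of other names lay within 0.3 of it. These were 14 PostLPLCs2, 11 PostLPLCs1, 6 InjuredHeps2 and 3 LPLCs, and none was a NormalHeps, InjuredHeps1 or PreLPLC. The next cell of another name was 3.70 away.

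The 20 members outside the main piece lay among other types. A group of 9, all of the pool without CLO, formed a piece of its own, nearest to InjuredHeps2 of cluster 5. The other 11 fell in no piece, with 5 nearest to LPLCs, 4 to InjuredHeps1 of cluster 19, 1 to NormalHeps and 1 to PostLPLCs1. They were not all single cells, since groups of fewer than 5 could not form a piece. Of all members, only 1 of 177 without CLO and 5 of 146 with CLO had no other member among the 15 nearest cells of their pool. By pool, 16 of the 20 came from the pool without CLO, 3 from the pool with CLO and 1 from Z103. Doublets, droplets that hold more than one cell, could not be looked for without values per gene, and their part in these positions was not tested. Counting the main piece alone, the ratio of the shares between pools was 2.95 (2.37 to 3.66) and that per PostLPLCs1 cell was 1.02 (0.791 to 1.32).

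**Figure D3:**
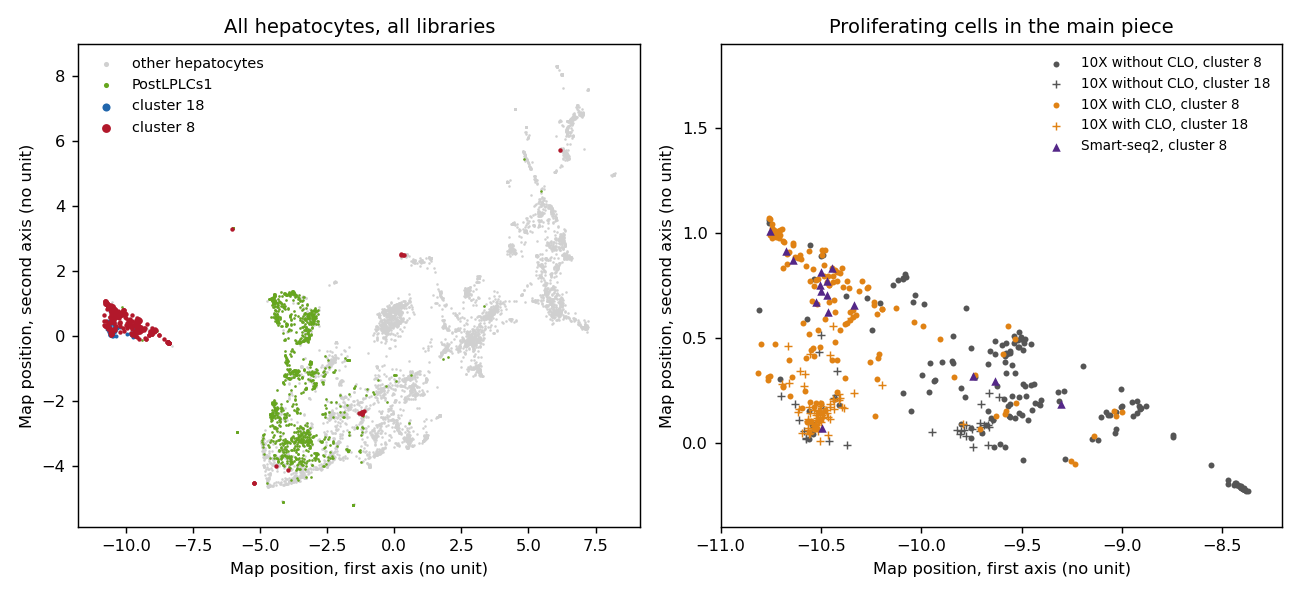
Authors' map positions (both axes without unit), with all hepatocytes on the left and the area of the main piece on the right. On the left cluster 8 (red) lies apart from PostLPLCs1 (green); on the right members without CLO (grey circles) have a median of -9.54 on the first axis, members with CLO (orange circles) -10.5 and Smart-seq2 members (triangles) -10.5, and crosses show cluster 18.

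Within the main piece the members of both pools were centred on different parts. On the first axis the middle 50% of the 161 members without CLO ran from -9.84 to -9.03, with a median of -9.54. The middle 50% of the 143 members with CLO ran from -10.6 to -10.3, with a median of -10.5. These middle ranges did not overlap, although the full ranges did. On the second axis the medians were 0.201 without CLO and 0.625 with CLO, and the middle ranges overlapped. Over all members, those outside the piece included, the median positions of cluster 8 in both pools lay 1.07 apart, against 0.704 for cluster 18 and from 0.0589 (cluster 20) to 0.765 (cluster 10) in the PostLPLCs1 clusters. This shift was place 8 of 25 in order of size, so larger ones were seen in 7 other clusters.

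Mixing within the cluster showed the same separation. CLO cells were 45.2% of the 323 members of both pools, but 75.8% of the 15 members nearest to a CLO cell and 23.9% of the 15 nearest to a member from the pool without CLO. The gap of 51.9 percentage points compares with 44.5 in cluster 18, 22.2 in PostLPLCs1 cluster 4, 23.4 in cluster 6, 20.4 in cluster 10 and 11.5 in cluster 20. Some members lay on the other pool's side, since 23 of 146 CLO members had mostly neighbours without CLO and 22 of 177 members without CLO had mostly CLO neighbours. The pools were separate batches, and the part of batch, depth or cell cycle stage in this separation was not tested.

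Smart-seq2 members, from mice without CLO in their labels, lay mainly on the CLO pool's side. Their median was -10.5 on the first axis, and CLO cells made up 70.2% of their 15 nearest 10X members. Of the 17 cells, 13 had mostly CLO neighbours. By batch, 12 of the 14 members of batch 1 had mostly CLO neighbours, with a mean of 80.5%, while the 3 members of batch 2 had a mean of 22.2%, with 1 cell mostly near CLO cells. The part of the batch in this position was not tested, and batch 2 had only these 3 cells.

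Around a member, most cells of its own pool were members too. Cluster 8 made up 77.5% of the 15 nearest cells without CLO and 78.4% with CLO, places 9 and 4 among the 25 clusters in order of this share within each pool. These places partly follow cell number, since a small cluster cannot fill 15 places. With CLO, for example, clusters 3, 9 and 17 held 8, 3 and 6 cells. Cluster 18 followed with 9.49% without CLO and 16.3% with CLO. PostLPLCs1 made up 2.22% and 1.74%, PostLPLCs2 3.95% and 0.868%, LPLCs 2.75% and 0.411%, and InjuredHeps2 2.45% and 1.96%. All types other than ProliHeps together therefore took a larger part of the surroundings without CLO, where ProliHeps made up 87.0%, than with CLO, where they made up 94.7%. The pools themselves differed in the same direction, with 212 ProliHeps among 4800 cells without CLO and 212 among 1446 with CLO. Cluster 18 was 0.729% and 4.56% of these cells. The shares of nearest cells were not adjusted for that.

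Among the nearest cells that were not cluster 8, cluster 18 outnumbered all other types together with CLO but not without CLO. Seen from cluster 18, cluster 8 made up 44.8% of the 15 nearest cells without CLO and 29.6% with CLO, and ProliHeps of both numbers together made up 98.9% and 99.9%. All 15 nearest cells were ProliHeps for 82 of 177 members without CLO (46.3%) and for 88 of 146 with CLO (60.3%). Fewer than 8 were ProliHeps for 16 members without CLO (9.04%) and 3 with CLO (2.05%), and for 0 of the 35 and 0 of the 66 cells of cluster 18. From the side of PostLPLCs1, cluster 8 made up 1.05% of the 15 nearest cells without CLO and 0.722% with CLO, so few PostLPLCs1 had members next to them on the map.

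**Figure D4:**
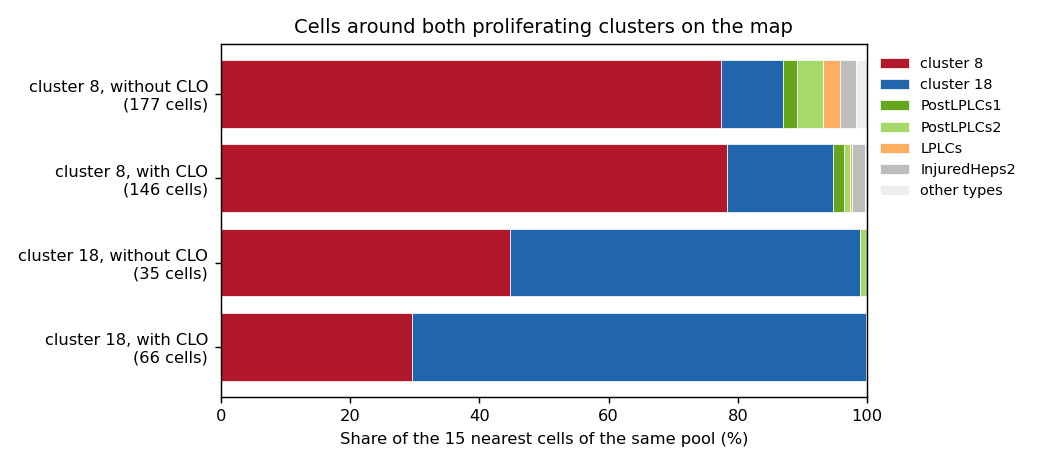
Share of the 15 nearest cells of the same 10X pool (percent, horizontal axis) by cluster or type, as stacked bars, for the cells of cluster 8 and of cluster 18. Cluster 8 makes up 77.5% and 78.4% of the cells around its own members, and cluster 18 makes up 9.49% and 16.3%.

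When each cell took the commonest cluster number among its 30 nearest cells of all libraries, 148 of 177 members without CLO (83.6%) and 123 of 146 with CLO (84.2%) kept the number 8. Of those that did not, 13 without CLO and 20 with CLO took the number 18. Cells of cluster 18 and of other clusters moved the other way, so that the totals under this naming were 179 cluster 8 cells without CLO and 142 with CLO.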

How the data were processed

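The authors integrated hepatocytes across libraries and clustered them at a resolution named in the header of the cluster column, per the file headers. Per the submitters' processing notes, Seurat 4.0.1, HTSeq 0.6.0, STAR 2.5.2b, UMI-tools, Trimmomatic 0.36, cutadapt 1.14, Cell Ranger 6.0.1 and the build mm10 were used, with no role given. Map positions were used as deposited, a score with no unit. How cells were filtered, how doublets were treated and the depth per cell were not given in these sources, and all cells were kept. Precision follows from the number of cells, 26 to 4800 per library.

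Groups were taken from the labels, also where the table's set name gives 1 week of DDC to day 0 cells. Members and comparisons were chosen with earlier results of these data known. Clusters named were 8, 18, those of PostLPLCs1 and others with at least 1% of a pool or of the nearest cells. Per-library shares carry exact Clopper-Pearson 95% intervals, ratios of shares Katz log intervals, and ratios of 4 counts log intervals. A count of 0 was given the limit of 3 cells. Nearest cells were the 15 closest on the map, within 1 pool unless stated, and pieces were found with DBSCAN. The interval and neighbour functions were tested on simulated data. The 10X pools shared 1 cell barcode, in no member. No p-value is given. The myeloid table and both day 3 libraries were not analysed here. Scripts ran under Python 3.11.15 with scikit-learn 1.9.0, scipy 1.17.1, pandas 2.3.3, numpy 2.4.6 and matplotlib 3.10.9.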

Additional observations from a re-analysis of the deposited data

Results flagged for a closer look

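Library L5, of mixed day 3 and day 7 and in no day comparison, held 2 cluster 8 cells among 26, or 7.69% (0.946 to 25.1). This lay above the 6.98% that the limit of 3 cells gives for the 0 of 43 cells in the day 0 library, but below the exact upper bound of 8.22% for the same count, so a difference from day 0 was not detectable with this number of cells.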

How the results depend on the processing

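Of 43 alternative values, 38 stayed within the interval or spread of the reported value and 5 did not. For the nearest-cell and mixing shares, that interval was a binomial one that took each member as 1 independent trial. Neighbourhoods of members overlap, so such an interval does not measure a sampling spread. Some of the 38 could not have moved, so this count does not measure how stable the results are. Cells with a shared barcode included no member, and without them the ProliHeps shares (83.5% and 68.9%) and the PostLPLCs1 ratio (0.949) were unchanged. Leaving out a day 7 library cannot move the mean of these libraries by more than their SD, the spread used there. Without InjuredHeps1 in the denominator the ratio of cluster 8 shares was 2.22. The pool without CLO held 965 InjuredHeps1 and the pool with CLO 18, so part of the main ratio of 2.74 goes with that difference in composition. Without NormalHeps the ratio was 2.76. Against all 4 LPLC stages in place of PostLPLCs1 the ratio was 1.98; these are other comparison cells. The median map distance of members to their centre was 0.639, against 1.01 from a mean centre and 0.338 within the pool with CLO. The main piece held 77.9% of members at a radius of 0.2, which split off 58 members without CLO and 6 with CLO into further pieces, and 94.1% at 0.3, 0.5 and 0.8; these radii were chosen after seeing the data. The day 7 minus day 0 difference in Smart-seq2 was 9.44 percentage points and ran from 6.38 to 14.2 when each day 7 library was left out, 14.2 being the value without L4. Values per gene and depth per cell were not used here, so the cell type name, doublets and depth could not be checked. No paired analysis was possible because replicate numbers here only name libraries and pair none.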
